A study of Mus musculus with 12 samples.

Results

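Of the 31590 gene names in the deposited table of marrow expression, 48 had their highest level in hCD4+ pro-B cells by a fixed margin. Members were chosen by these values: a name was taken when the lower of the 2 hCD4+ pro-B arrays was at least 7 on the log2 scale and at least 0.5 above the highest of the other 10 arrays. The levels in hCD4+ pro-B cells are therefore described and not tested. A gene symbol was carried by 13 members, of which 12 are named here: Dok2, Myl10, Ppp5c, Tmem121, Slc25a1, Lyar, Surf6, Hspbp1, Pnp, Slc45a4, Olfr570 and Rfesd. The other 35 had no symbol: 28 went by a probe or clone number, 4 by an Ensembl transcript, and 3 were the predicted genes Gm5067, Gm5093 and Gm9372, each a pseudogene in RefSeq.

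Pro-B cells are marrow precursors that rearrange the immunoglobulin heavy chain gene; they follow pre-pro-B cells and precede pre-B cells, which carry a finished heavy chain. Cebpa encodes C/EBPα, a transcription factor of granulocyte and monocyte progenitors (GMP), and its enhancer is known for activity in myeloid cells. In the reporter mice used here, a human CD4 surface protein (hCD4) is placed under the Cebpa enhancer and promoter, so that hCD4 on a cell reports activity of that transgene rather than C/EBPα itself.

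RNA from sorted bone marrow cells of female C57BL/6 mice aged 16 weeks was hybridised to 12 one-colour Agilent arrays, 2 per group. The 6 groups were hCD4+ GMP, hCD4- pre-pro-B, hCD4+ pre-pro-B, hCD4- pro-B, hCD4+ pro-B and pre-B cells, and every group came from mice that carry the Cebpa-Enh/prom-hCD4 transgene, with no treatment labelled. Pre-B cells carry no hCD4 label, and the sorting gates were not given in the sources used here. The series title speaks of a pair of mice, but the labels do not tie an array to a mouse, so p-values measure the spread between arrays, which may be technical. In sorted bulk samples, fewer cells of a type and less RNA per cell cannot be told apart.

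Markers of pro-B cells were present, mostly below their level in hCD4- pro-B cells. In the hCD4+ pro-B arrays, Igll1 (part of the surrogate light chain) lay at 14.0 to 14.2 and Ebf1 (a B-lineage transcription factor) at 12.6 to 12.7. Each lay 0.8 below its highest array elsewhere, in hCD4- pro-B or pre-B cells. Enpep, a surface peptidase of early B cells, was not above background (6.1 to 6.2), against 7.3 in hCD4- pro-B cells and 7.8 to 7.9 in pre-B cells. Of 28 pro-B genes, 3 had both hCD4+ pro-B arrays above both hCD4- pro-B arrays. Transcripts of another lineage were present too: Mpo, the myeloperoxidase of granulocyte precursors, lay at 13.8 to 14.2 in hCD4+ pro-B cells, 6.5 to 7.6 in hCD4- pro-B cells and 16.8 to 17.2 in GMP. Of 20 neutrophil primary granule genes, 14 had both hCD4+ pro-B arrays above both hCD4- pro-B arrays, against 28.0% of all rows tested. The summed linear signal, in units of 1000, was 514 to 564 against 845 to 861 for the pro-B list. For the granule list it was 66.2 to 76.0 in hCD4+ pro-B, 31.6 to 31.9 in hCD4- pro-B and 701 to 777 in GMP arrays. Of 30 plasmacytoid dendritic cell genes, 23 stood likewise. The summed signal of that list was 241 to 266 in hCD4+ pro-B, 305 to 318 in hCD4- pro-B and 1043 to 1067 in hCD4- pre-pro-B arrays. That list includes Dntt and Blnk, which also stand in the pro-B list. Dntt lay at 16.5 to 16.7 in hCD4+ and 17.2 in hCD4- pro-B arrays, and Blnk at 15.6 to 15.7 and 16.5 to 16.6. Such bright genes weigh heavily in a linear sum, and the sum without them was not taken. The plasma cell transcript Igj was well above background on 1 of the 2 hCD4+ pro-B arrays, and the natural killer genes Klrb1c and Gzma on 0. The hCD4- pro-B arrays held more of some such transcripts: Igj lay at 11.0 to 11.3, and the neutrophil granule genes S100a8 at 11.2 to 12 and Ltf at 8.1 to 8.9, against 5.9 to 6.6, 6.7 to 7.5 and 5.9 to 6.3 in hCD4+ pro-B cells. Igj was not particular to hCD4- pro-B cells, as it lay at 10.6 to 11.6 in hCD4- pre-pro-B arrays. Klrb1c was above background on both hCD4- pro-B arrays. Their part in the members' differences was not tested. On the scale of linear signal, a weighted mean of the other groups cannot exceed the highest of them, and each member exceeded that highest group. Differences between slides and the normalisation across arrays are not part of that arithmetic, and neither are cell types outside the sorted groups.

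The 12 arrays lay on 3 slides of 4. Slide 3 held the hCD4+ pro-B and the pre-B arrays, slide 2 the hCD4- pro-B and hCD4+ pre-pro-B arrays, and slide 1 the GMP and hCD4- pre-pro-B arrays, each slide having a scan of its own. Negative control spots had a median raw signal of 72.0 to 75 scanner units on slide 3 and 43.0 to 48.0 on slides 1 and 2, with local background at 39.0 to 43.0 and 25.0 to 28.0. The hCD4- pre-pro-B arrays had the weakest raw signal, with a 75th percentile over probes of 402 and 287. It was 985 and 693 on the GMP arrays of the same slide and 506 to 768 on slides 2 and 3. The part of this in the members' differences was not tested. The deposited values resembled signal without background subtraction, in which low levels sit on a floor and their differences are compressed. For a member, the difference between hCD4+ pro-B cells and the pre-B arrays of the same slide is free of a slide difference, whereas in its differences from the other 4 groups the slide and the group cannot be told apart.

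**Figure D1:**
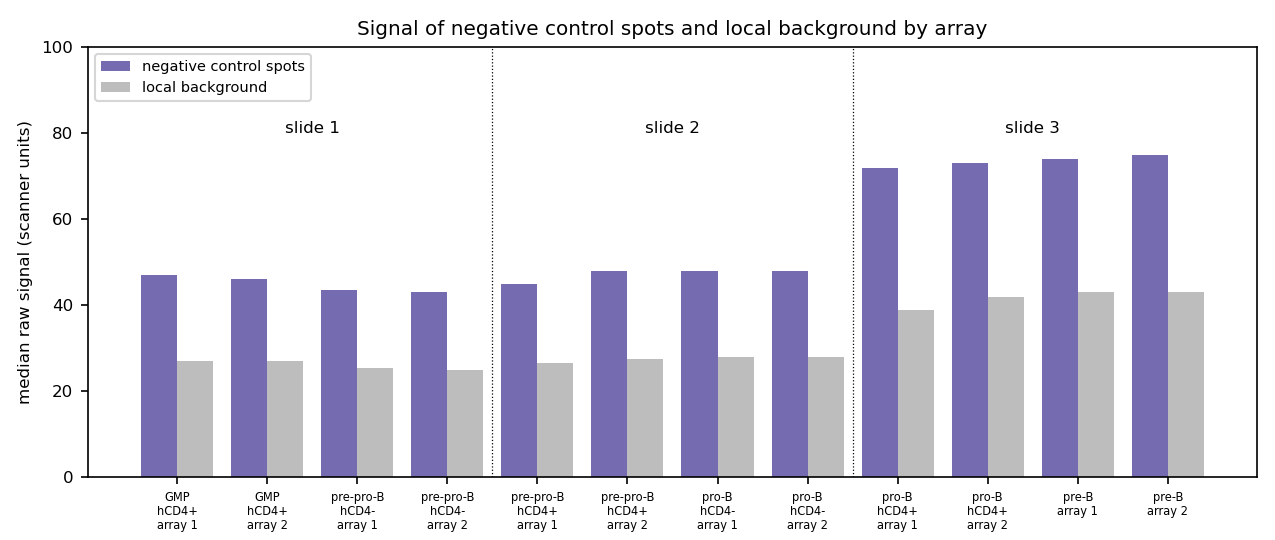
Median raw signal of negative control spots and of the local background, in scanner units, for each of the 12 arrays, with the 3 slides separated by dotted lines. The 4 arrays of slide 3, hCD4+ pro-B and pre-B, read 72.0 to 75 for negative controls, above the 43.0 to 48.0 of the other 8.

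Members without a symbol made up 72.9% of the set, against 29.9% of the 13494 rows that reached a level of 7 on both hCD4+ pro-B arrays. Put as a rate, 35 of 4036 such rows without a symbol met the rule (0.867%) and 13 of 9458 with a symbol (0.137%). The same rule applied to the other groups chose 924 names in GMP (14.5% without a symbol), 601 in pre-B (38.3%) and 122 in hCD4- pro-B cells (32.0%). For pre-pro-B cells it chose 313 in the hCD4- group (29.7%) and 23 in the hCD4+ group (26.1%). Where a rule of the same margin was put to whole slides, 67 names were highest on the 4 arrays of slide 3, of which 48 had no symbol and 5 were members. It chose 8 names for slide 1 and 1 for slide 2, none of them without a symbol.

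Array probes are 60 bases long, and 20 of the 48 members (41.7%) had a probe that shares a run of 18 or more bases with a probe of another name elsewhere in the genome. This measure was chosen after values had been seen. Among members without a symbol it held for 19 of 35 (54.3%), against 29.5% of rows without a symbol that reached 7 and 10.2% of all rows. In 9 of the 19 the other probe belonged to a named gene. Those 9 are printed to show the bases that the probe of an unnamed member shares with a probe of a named gene. The probes were not aligned to transcripts. Of the named genes, 6 encode ribosomal proteins (Rpl9, Rpl10a, Rpl11, Rpl30, Rplp0, Rps7), Eef1a1 is a translation elongation factor, and Hspe1 and Cct2 are chaperonin subunits. Each member's probe is written 5′ to 3′ as on the array, with its position on mouse build mm9 as the scanner files give it. Capitals mark the longest run shared with a probe of the named gene.
A_55_P2049976, chr12:69191971-69192030, plus strand, run shared with Hspe1: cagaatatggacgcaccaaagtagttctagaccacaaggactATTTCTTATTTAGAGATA
Gm5093, chr17:46576493-46576552, minus strand, run shared with Rpl11: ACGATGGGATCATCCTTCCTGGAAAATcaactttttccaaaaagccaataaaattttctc
A_55_P2064412, chr6:67367783-67367842, minus strand, run shared with Rpl30: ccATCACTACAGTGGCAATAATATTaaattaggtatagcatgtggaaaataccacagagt
A_55_P2027230, chr19:8330531-8330590, minus strand, run shared with Eef1a1: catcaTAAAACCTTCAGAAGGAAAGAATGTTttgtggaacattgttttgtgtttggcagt
NAP094721-001, chrX:154687330-154687389, plus strand, run shared with Rpl9: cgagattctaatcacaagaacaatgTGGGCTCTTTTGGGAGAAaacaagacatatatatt
A_55_P1954860, chr3:93082945-93083004, plus strand, run shared with Rplp0: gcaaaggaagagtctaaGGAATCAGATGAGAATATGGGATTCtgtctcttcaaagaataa
NAP059691-1, chr13:64047203-64047262, minus strand, run shared with Rpl10a: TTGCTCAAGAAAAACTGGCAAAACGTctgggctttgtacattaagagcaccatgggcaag
NAP068632-1, chr10:103356262-103356321, plus strand, run shared with Cct2: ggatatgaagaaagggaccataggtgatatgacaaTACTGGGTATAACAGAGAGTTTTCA
A_55_P1970536, chr4:122952444-122952503, minus strand, run shared with Rps7: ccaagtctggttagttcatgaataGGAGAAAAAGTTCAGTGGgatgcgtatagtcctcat

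The runs shared with these named genes ranged from 18 to 27 of the 60 bases, and lay at either end or inside the probe. A_55_P2027230 shared a longer one, of 31 bases, with the unnamed A_55_P2008691. Only 1 pair of members shared such a run with each other. Median GC content was 41.7% in the members' probes and in all 39429 probes of the array.

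The rows of the named genes did not show the members' pattern. Each row averages the probes of its name, 1 to 3 here. Where there was more than 1, the probe that shares the run was not compared alone. Most of these rows also lay at higher levels than the members, so the spans below come from unlike parts of the scale. Of the 9, 0 had both hCD4+ pro-B arrays above the other 10, against 2.91% of all rows tested. That count does not set these genes apart from other rows. Their lower hCD4+ pro-B value lay between 0 and 0.5 below the highest other array. Rpl11, for one, had group means of 16.40 in hCD4+ pro-B and 16.60 in hCD4- pre-pro-B cells, its highest group. Gm5093, whose probe opens with 27 bases of Rpl11, read 11.6 and 11.2 in GMP, 9.7 and 9.6 in hCD4- pre-pro-B, 10.5 and 10.2 in hCD4+ pre-pro-B, 10.5 and 10.8 in hCD4- pro-B, 12.6 and 12.6 in hCD4+ pro-B and 11.8 and 11.4 in pre-B arrays. Across the 6 groups the means of the named genes spanned 0.15 to 1.45 on the log2 scale and those of the 9 members 1.10 to 2.95. Hspe1 had the span of 1.45, with means of 13.05 in GMP, 12.90 in hCD4+ pro-B and 11.60 in pre-B cells. Its unnamed counterpart A_55_P2049976 read 6.6 and 6.4 in GMP, 5.8 and 5.8 in hCD4- pre-pro-B, 6.1 and 6.0 in hCD4+ pre-pro-B, 6.0 and 6.0 in hCD4- pro-B, 8.0 and 8.1 in hCD4+ pro-B and 6.8 and 6.7 in pre-B arrays. That probe was not well above background in the pre-pro-B or hCD4- pro-B arrays. Whether signal from the named genes' RNA reached the members' probes was not tested.

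**Figure D2:**
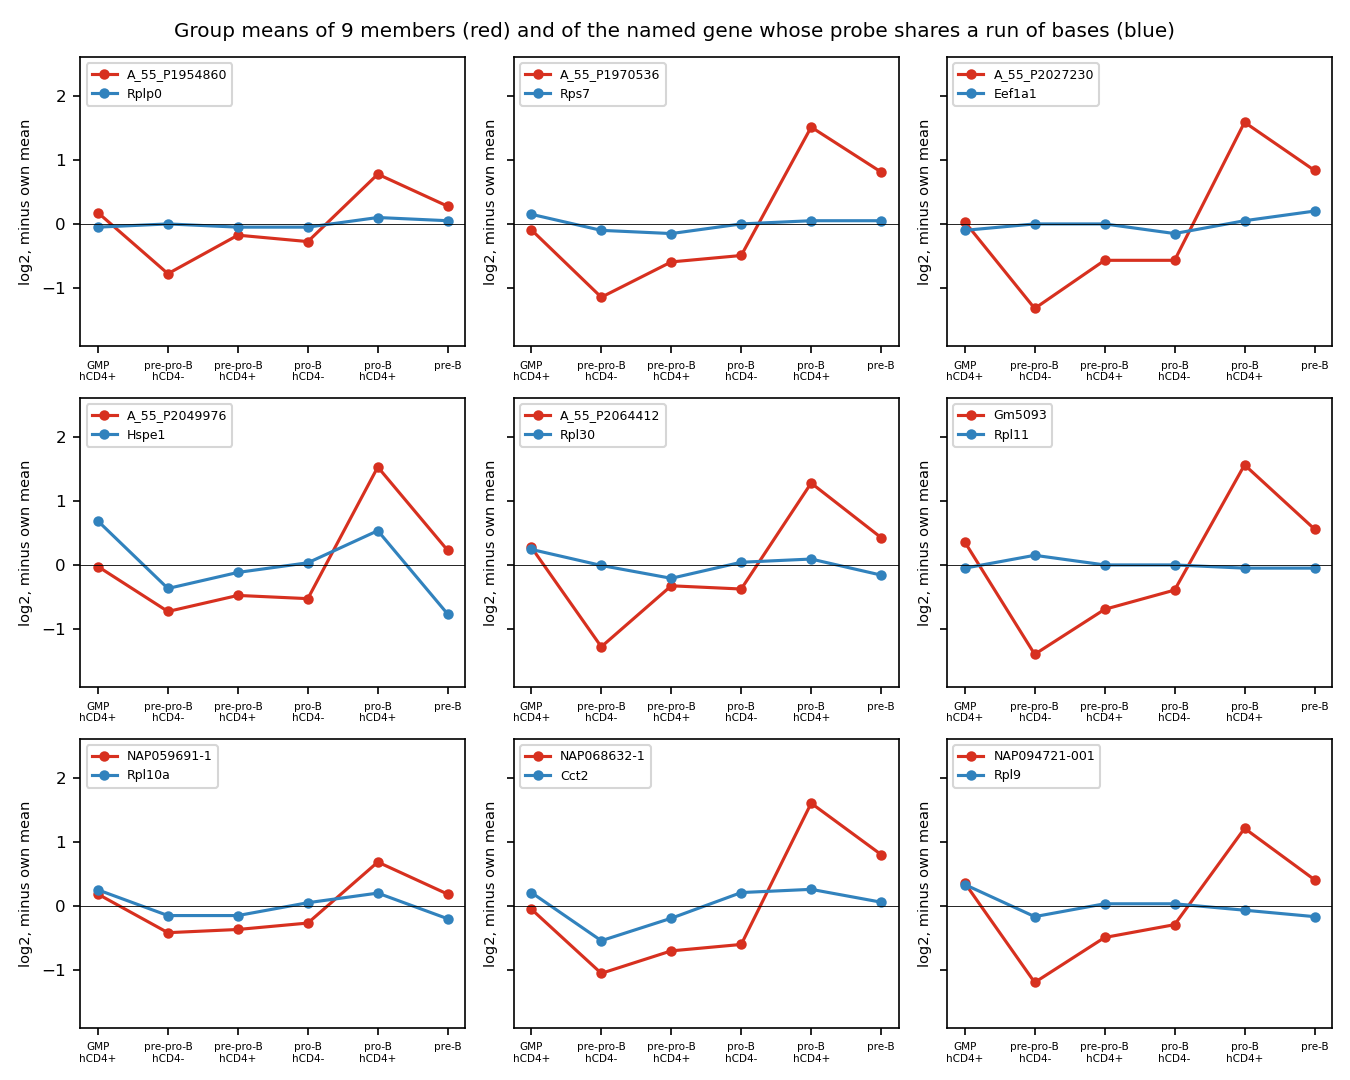
Group means on the log2 scale, each minus its own mean over the 6 groups, for 9 members without a symbol (red) and for the named gene whose probe shares a run of bases with the member's probe (blue). A blue line is the mean of all probes of the named gene. The red lines span 1.10 to 2.95 and peak in hCD4+ pro-B cells, while the blue lines span 0.15 to 1.45.

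Among the members with a symbol, the widest range across groups belonged to Myl10, a myosin regulatory light chain known from precursor lymphocytes, with its probe at chr5:137173854-137176603 on the plus strand. Its levels were 6.5 and 6.2 in GMP, 6.2 and 6.2 in hCD4- pre-pro-B, 6.6 and 6.9 in hCD4+ pre-pro-B, 10.8 and 10.6 in hCD4- pro-B, 11.7 and 11.8 in hCD4+ pro-B and 7.7 and 7.7 in pre-B arrays. Both pro-B groups thus stood apart from the rest, and hCD4+ pro-B lay 1.05 above hCD4- pro-B cells on the means. Myl10 was the 1 member to stand in any of the 29 marker and pathway lists, the pro-B list. There it was also the 1 of 28 tested genes with both hCD4+ pro-B arrays above all others, against 2.91% of all rows tested. For a member, that place follows from the rule.

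Tmem121 encodes a transmembrane protein and lies beside the immunoglobulin heavy chain locus, with overlapping probes from chr12:114427669-114427733 on the plus strand. It read 6.1 and 6.0 in GMP, 7.9 and 7.9 in hCD4- pre-pro-B, 8.7 and 9.3 in hCD4+ pre-pro-B, 10.2 and 10.2 in hCD4- pro-B, 11.2 and 11.0 in hCD4+ pro-B and 7.9 and 7.8 in pre-B arrays. GMP held the lowest level, not well above background on either array, and no 2 of the B-lineage groups overlapped except hCD4- pre-pro-B and pre-B cells. Dok2, an adaptor protein that dampens tyrosine kinase signalling in blood cells (chr14:71178194-71178253, plus strand), read 9.4 and 9.2 in GMP, 7.9 and 7.8 in hCD4- pre-pro-B, 8.3 and 8.8 in hCD4+ pre-pro-B, 10.1 and 9.9 in hCD4- pro-B, 11.3 and 11.0 in hCD4+ pro-B and 7.3 and 7.3 in pre-B arrays. Its lowest level was in pre-B cells, which share the slide of the highest.

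Another 4 symbol members have roles in the nucleolus or in protein folding. Surf6 is a nucleolar protein of ribosome assembly and Lyar a nucleolar zinc finger protein. Surf6 (probes at chr2:26746372-26746431 and chr2:26746548-26746607, minus strand) read 10.8 and 10.7 in GMP, 10 and 10 in hCD4- pre-pro-B, 10.1 and 10.3 in hCD4+ pre-pro-B, 10.7 and 10.7 in hCD4- pro-B, 11.4 and 11.4 in hCD4+ pro-B and 10.4 and 10.4 in pre-B arrays. Lyar (chr5:38625477-38625536, plus strand) read 6.7 and 6.6 in GMP, 6.0 and 5.9 in hCD4- pre-pro-B, 6.1 and 6.1 in hCD4+ pre-pro-B, 6.2 and 6.3 in hCD4- pro-B, 7.7 and 7.9 in hCD4+ pro-B and 7.0 and 6.7 in pre-B arrays. It was the only symbol member whose next group was pre-B cells. Of 28 listed ribosome biogenesis genes, 0 were members, but 25 had both hCD4+ pro-B arrays above both hCD4- pro-B arrays, against 28.0% of all rows. In 2 of the 28 they lay above all other arrays, against 2.91% of all rows tested.

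Hspbp1 exchanges nucleotide on the chaperone Hsp70, and Ppp5c is a serine/threonine phosphatase that binds Hsp90. Hspbp1 (chr7:4612352-4612411, minus strand) read 10.6 and 10.6 in GMP, 9.6 and 9.4 in hCD4- pre-pro-B, 9.5 and 9.9 in hCD4+ pre-pro-B, 10.6 and 10.5 in hCD4- pro-B, 11.4 and 11.1 in hCD4+ pro-B and 9.9 and 10 in pre-B arrays. Ppp5c (chr7:17590008-17590067, minus strand) read 11.2 and 11.4 in GMP, 10.7 and 10.8 in hCD4- pre-pro-B, 11.2 and 11.2 in hCD4+ pre-pro-B, 11.3 and 11.4 in hCD4- pro-B, 12.2 and 12.3 in hCD4+ pro-B and 11.1 and 10.7 in pre-B arrays. Outside hCD4+ pro-B cells the 5 group means of Ppp5c lay between 10.75 and 11.35.

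Metabolism and transport account for 3 more. Slc25a1, the citrate carrier of the mitochondrial inner membrane (chr16:17925661-17925720, minus strand), read 10 and 10 in GMP, 9.9 and 9.6 in hCD4- pre-pro-B, 9.5 and 9.8 in hCD4+ pre-pro-B, 10.9 and 10.7 in hCD4- pro-B, 12 and 11.6 in hCD4+ pro-B and 9.7 and 9.8 in pre-B arrays. Pnp, a purine nucleoside phosphorylase, read 9.6 and 9.7 in GMP, 8.8 and 8.8 in hCD4- pre-pro-B, 8.8 and 8.9 in hCD4+ pre-pro-B, 10.1 and 10 in hCD4- pro-B, 10.6 and 10.8 in hCD4+ pro-B and 9.3 and 9.3 in pre-B arrays. Slc45a4, a solute carrier (chr15:73412018-73412077, minus strand), read 9.1 and 9.6 in GMP, 9.9 and 9.9 in hCD4- pre-pro-B, 9.6 and 9.6 in hCD4+ pre-pro-B, 10 and 9.9 in hCD4- pro-B, 10.5 and 10.5 in hCD4+ pro-B and 9.0 and 9.1 in pre-B arrays. For Slc25a1 and Pnp both pro-B groups lay above the other 4, while the hCD4- pro-B and hCD4- pre-pro-B arrays of Slc45a4 overlapped.

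The Pnp row averages probes that differ. The one at chr14:51571344-51571403 had rebuilt group means of 14.53 in hCD4+ and 14.05 in hCD4- pro-B cells, and the one at chr14:51573028-51573087 had 6.50 and 6.24. Neither cleared the margin, with gaps of 0.31 and 0.09 on rebuilt values. Differences between groups in the Pnp row are averages too. On the brighter probe, with no test, GMP lay 1.97 above hCD4- pre-pro-B and 1.21 above hCD4+ pre-pro-B cells, while hCD4+ pre-pro-B cells lay at -1.99 and pre-B cells at -2.02 relative to hCD4- pro-B cells. For Surf6 the probes had gaps of 0.40 and 0.67.

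The remaining symbol members were dim. Olfr570, an olfactory receptor (chr7:110049732-110049791, plus strand), read 5.8 to 6.5 on the other 10 arrays and 7.0 and 7.6 in hCD4+ pro-B cells. Its probe shares 26 bases with that of Olfr575, a related receptor, in capitals here.
Olfr570: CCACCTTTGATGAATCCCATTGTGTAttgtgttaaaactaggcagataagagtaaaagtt
The row of Olfr575 read 5.8 to 6.1 elsewhere and 6.0 to 6.1 in hCD4+ pro-B cells. Rfesd, a Rieske iron-sulfur domain protein (chr13:76139029-76139088, minus strand), read 6.1 to 6.6 elsewhere and 7.1 and 7.4 in hCD4+ pro-B cells. Both were well above background on 2 arrays in hCD4+ pro-B cells and on at most 1 array of any other group.

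**Figure D3:**
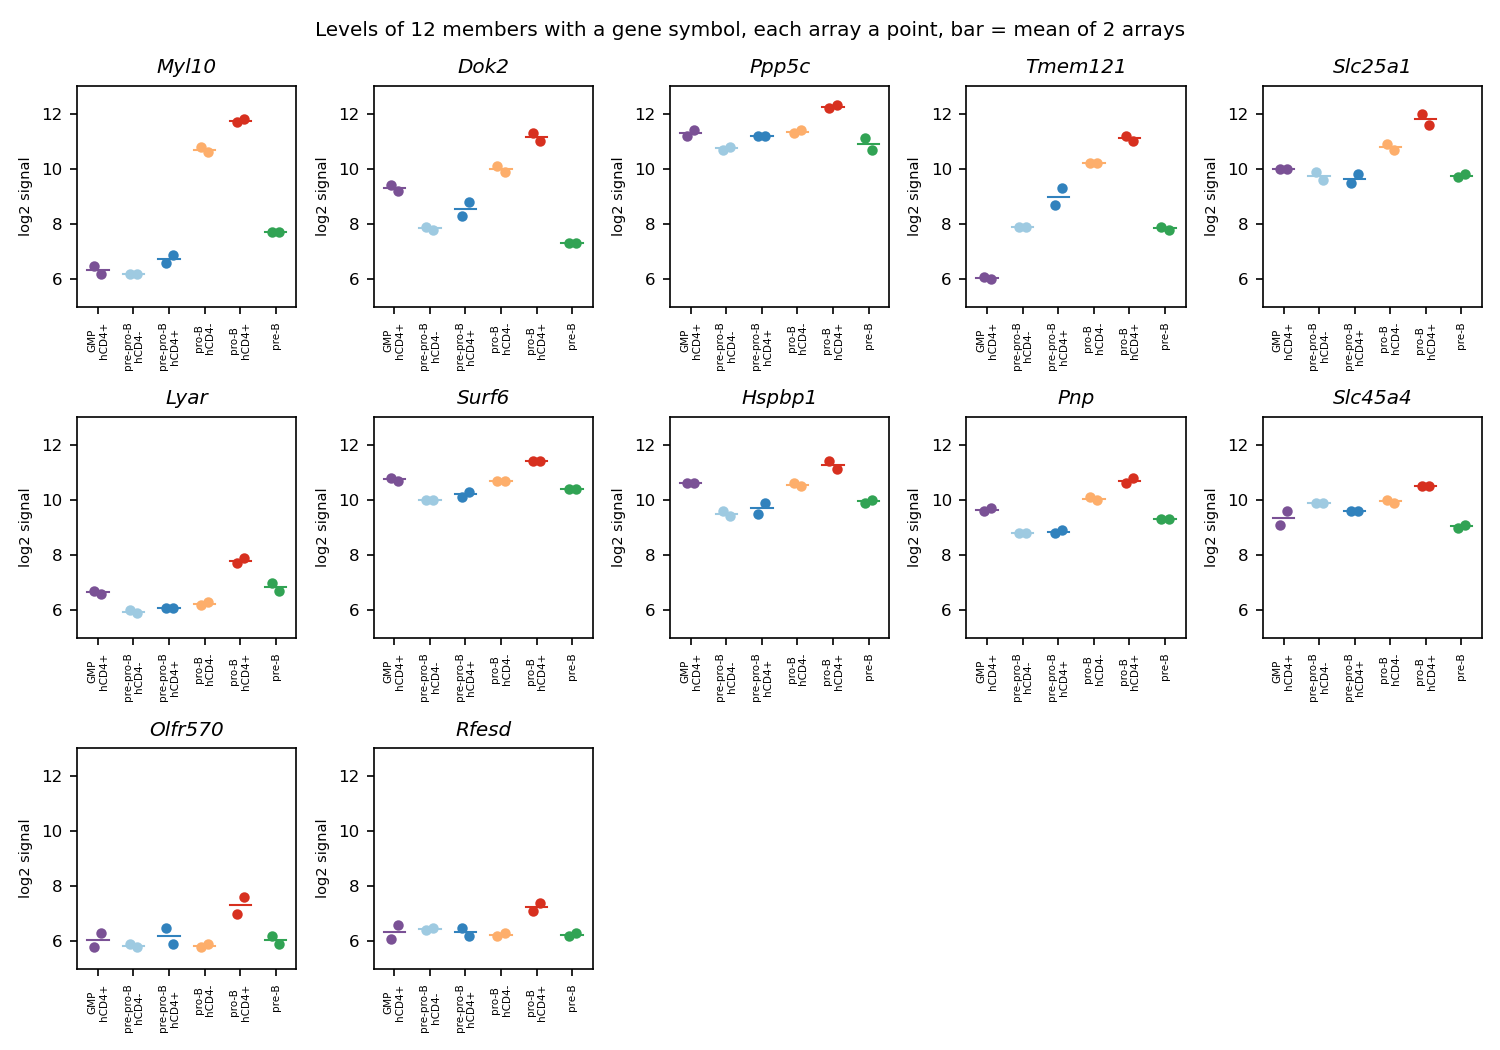
Level of each of 12 members with a gene symbol on the log2 scale, with a point for each array and a bar for the mean of 2 arrays, in the 6 sorted groups. Both hCD4+ pro-B points lie above the other 10 in each panel, as the choice of members requires.

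Margins were narrow. They ran from 0.5 to 1.4 with a median of 0.6, and 19 members (5 with a symbol, 14 without) sat exactly on 0.5 in a table rounded to 1 decimal. Just inside were Hspbp1, Pnp, Slc45a4, Olfr570 and Rfesd. Just outside, at 0.4, lay 29 rows, 13 of them with a symbol, among them Txnrd3 (12.4 against 12 for the highest other array), Mthfd1 (12.2 against 11.8), Usp10 (12 against 11.6) and Plcxd1 (11.9 against 11.5). Only 5 members reached a margin of 1, and 4 of them had no symbol. The widest, 1.4, was NAP094054-001, which read 8.0 and 7.9 in GMP, 6.3 and 6.3 in hCD4- pre-pro-B, 6.8 and 6.8 in hCD4+ pre-pro-B, 7.0 and 7.3 in hCD4- pro-B, 9.9 and 9.7 in hCD4+ pro-B and 8.3 and 8.0 in pre-B arrays. On values rebuilt from the scanner files without rounding, 36 members met the rule. Of the 12 that did not, 11 had rebuilt margins of 0.43 to 0.49, Hspbp1 and Slc45a4 among them. The other was Pnp, at 0.26, whose rebuilt hCD4+ pro-B mean of 10.52 departed from the 10.70 of the table by more than rounding gives.

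Among the other members without a symbol, Gm9372 and ENSMUST00000104977, annotated on the array as a predicted pseudogene, had much the same profile. Gm9372 read 11.3 and 10.9 in GMP, 8.6 and 8.5 in hCD4- pre-pro-B, 10 and 9.7 in hCD4+ pre-pro-B, 9.9 and 10.4 in hCD4- pro-B, 12.3 and 12.3 in hCD4+ pro-B and 11.7 and 11.3 in pre-B arrays. ENSMUST00000104977 read 11.2 and 10.7, 8.3 and 8.3, 10 and 9.8, 9.9 and 10.4, 12.4 and 12.1, and 11.5 and 11.2 in the same groups. In both, pre-B arrays came next, hCD4- pre-pro-B arrays were lowest, and the hCD4+ pre-pro-B arrays overlapped the hCD4- pro-B arrays. Gm5067 was nearer its background, with 7.4 and 7.3 in GMP, 6.2 and 6.2 in hCD4- pre-pro-B, 6.6 and 6.5 in hCD4+ pre-pro-B, 7.1 and 6.9 in hCD4- pro-B, 8.4 and 8.6 in hCD4+ pro-B and 7.4 and 7.2 in pre-B arrays. Over the 35 members without a symbol, median levels were 8.10 in GMP, 6.55 in hCD4- pre-pro-B, 7.2 in hCD4+ pre-pro-B, 7.40 in hCD4- pro-B, 9.05 in hCD4+ pro-B and 8.20 in pre-B cells. On both arrays of a group, 18 of the 35 were well above background in hCD4- pre-pro-B cells and 29 to 35 in each other group.

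The members with and without a symbol differed in the groups that followed hCD4+ pro-B cells. The next group was hCD4- pro-B for 8 of 13 symbol members, GMP for Surf6 and Hspbp1, pre-B for Lyar, and a pre-pro-B group for Olfr570 and Rfesd. Among the 35 without a symbol it was pre-B for 23, GMP for 8 and a tie of GMP with pre-B or hCD4+ pre-pro-B for 4, and it was hCD4- pro-B for 0. Over all rows tested, the pre-B mean lay above the hCD4- pro-B mean for 56.9% without a symbol and 45.4% with one. The lowest group was hCD4- pre-pro-B, whose arrays had the weakest raw signal, for 33 of the 35 and for 7 of the 13. Both pre-B arrays lay above the 8 arrays of slides 1 and 2 for 12 of the 35 and for 0 of the 13. Conversely, both hCD4- pro-B arrays lay above the GMP, pre-pro-B and pre-B arrays for 6 of the 13 and for 0 of the 35. The shares of all rows that match these orders of groups were not taken, so the counts only describe the members.

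Relative to pre-B cells on the same slide, hCD4+ pro-B cells were higher by 0.95 to 4.05 (median 1.40) for the symbol members and by 0.50 to 1.75 (median 0.85) for those without. Relative to hCD4- pro-B cells on another slide the medians were 1.00 and 1.55. The rule itself sets both differences to at least 0.5 for each member, so only their size beyond that is described. Over the 10 arrays that are not hCD4+ pro-B, the median Pearson r between members was 0.30 over 78 pairs with a symbol and 0.88 over 595 pairs without. These arrays share slides and normalisation, so the correlations only describe how alike the profiles are.

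**Figure D4:**
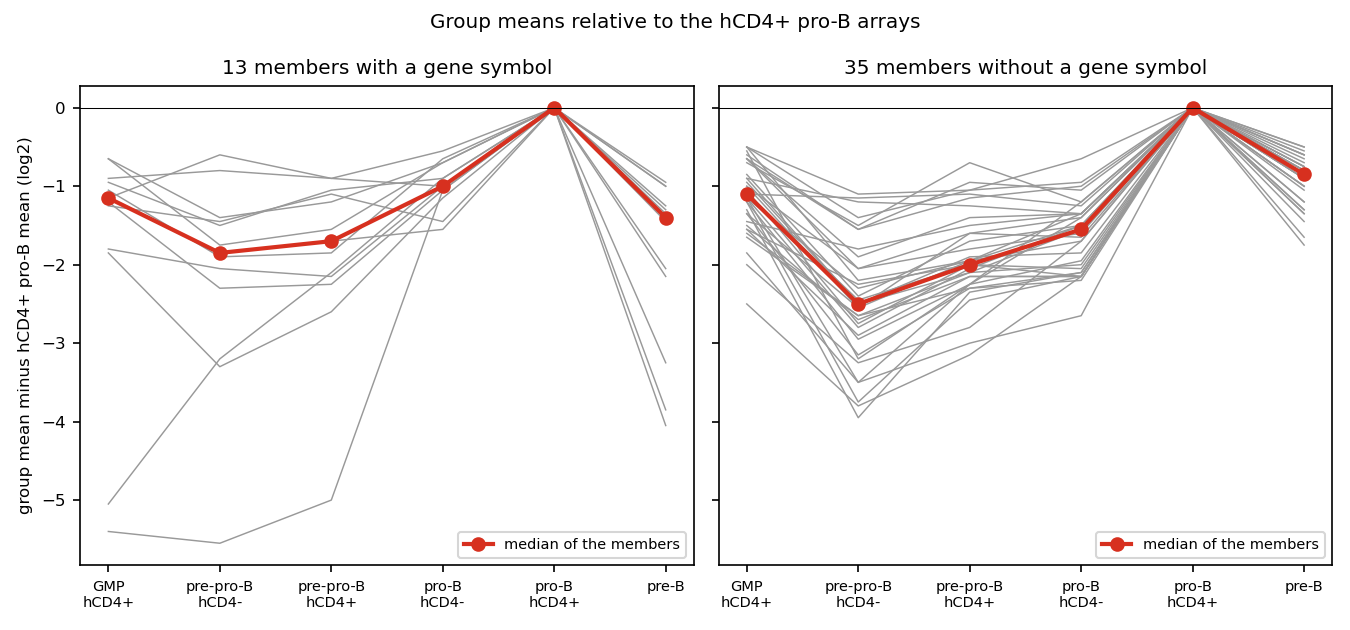
Group mean of each member minus its hCD4+ pro-B mean on the log2 scale, for 13 members with a symbol (left) and 35 without (right), with grey lines for members and red for their median. The median at pre-B is -1.40 on the left and -0.85 on the right, and at hCD4- pro-B it is -1.0 on the left and -1.55 on the right.

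Tests were confined to 5 comparisons among the groups other than hCD4+ pro-B, which the rule used only as a ceiling, by limma over the 18546 rows that had, in some group, a probe detected above background on each of its 2 arrays. Of the 48 members, 48 were tested, 4 of them having passed that filter through hCD4+ pro-B cells alone. Those 4 (A_55_P1989842, ENSMUST00000129713, Olfr570 and Rfesd) were called in 0 of the 5 comparisons, so each count of calls below is also the count over the other 44 (11 with a symbol and 33 without). Comparisons that share a group share its arrays, and their counts are not independent of each other.

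Pre-B against hCD4- pro-B cells divided the set by name. In either direction 37 of the 48 members were called, against 38.0% of all rows. Higher in pre-B cells were 27 members, against a background of 19.1% of all rows, and lower were 10, against 18.9%. Of the 27, 26 had no symbol, and the 10 had one, among them Myl10, Dok2, Tmem121, Slc25a1, Slc45a4, Pnp, Hspbp1, Ppp5c and Surf6. Myl10 fell by 3.0 (SE 0.135, adjusted p = 1.37e-06, 2 arrays a group), Dok2 fell by 2.70 (SE 0.170, adjusted p = 6.04e-06) and Tmem121 fell by 2.35 (SE 0.168, adjusted p = 1.19e-05). Lyar was the 1 symbol member that rose, at least 1.46-fold from an hCD4- pro-B level not well above background (adjusted p = 0.00384). A_55_P2027230, which shares a run with Eef1a1, rose by 1.40 (SE 0.106, adjusted p = 1.57e-05) and Gm9372 rose by 1.35 (SE 0.204, adjusted p = 0.000785). The median difference was -0.75 with a symbol and 0.75 without, (-0.90 and 0.80 without those 4), beside 0 over all rows with a symbol and 0.10 over the 6295 rows without, of which 56.9% were above 0. These groups lie on different slides, and here the slide and the group cannot be told apart.

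Of those calls, Surf6 was lost when any of the 4 arrays was left out (adjusted p = 0.0976 to 0.11). Ppp5c was lost without either hCD4- pro-B array (0.0665 and 0.133) or the second pre-B array (0.192), and Hspbp1 without the first hCD4- pro-B array (0.0695) or the first pre-B array (0.0668). With only the 4 arrays in the fit, Ppp5c (0.152) and Lyar (0.0617) were also lost. Of 28 ribosome biogenesis genes, 24 were lower and 1 was higher in pre-B cells.

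hCD4+ against hCD4- pre-pro-B cells asks whether members follow the reporter one stage earlier. Called in either direction were 27 members, against 18.8% of all rows. Higher in hCD4+ cells were 27 members (4 with a symbol and 23 without), against 9.50% of all rows, and lower were 0, against 9.35%. Tmem121 rose by 1.10 (SE 0.168, adjusted p = 0.00223), from 7.9 on both arrays to 8.7 and 9.3, and Dok2 rose by 0.70 (SE 0.170, adjusted p = 0.0195). Myl10 was at least 1.32-fold higher than an hCD4- level not well above background (adjusted p = 0.0206), and Ppp5c rose by 0.45 (SE 0.135, adjusted p = 0.0452). Without a symbol, ENSMUST00000104977 rose by 1.60 (SE 0.210, adjusted p = 0.000949) and Gm9372 by 1.30 (SE 0.204, adjusted p = 0.00253). The median difference was 0.45 over the 48, 0.50 over the 44 and 0 over all rows.

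This count leaned on single arrays and on the pooled spread. It was 12 without the second hCD4- pre-pro-B array, 13 without the first and 16 without the second hCD4+ pre-pro-B array, and limma on the 4 arrays alone called 0 members and 0 rows, although 33 members had an unadjusted p under 0.05. Tmem121 kept its call with each array left out; Myl10 and Dok2 lost theirs without the second hCD4- array (adjusted p = 0.0756 and 0.0918) or the second hCD4+ array (0.142 and 0.129), and Ppp5c without any of the 4 (0.0935 to 0.161). These groups are on slides 1 and 2, and again the slide and the group cannot be told apart. The hCD4- pre-pro-B arrays also had the weaker raw signal. Other lists moved in this comparison as well. Higher in hCD4+ pre-pro-B cells were 32 of 35 S-phase genes and 32 of 33 G2/M genes, with 0 lower. Of myeloid genes, 11 of 20 neutrophil primary granule genes were higher and 1 was lower, and 9 of 29 monocyte genes were higher and 0 lower. Mpo lay at 10.6 to 11.9 in hCD4+ and 6.3 to 8.5 in hCD4- pre-pro-B cells. Their part in the members' differences was not tested.

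GMP and hCD4- pre-pro-B cells share slide 1, but the hCD4- pre-pro-B arrays had the weaker raw signal, as given above. Called in either direction were 41 members, against 61.6% of all rows. Higher in GMP were 39 members, against 32.2% of all rows, and lower were 2, Tmem121 and Slc45a4, against 29.4%. Dok2 rose by 1.45 (SE 0.170, adjusted p = 4.51e-05), Hspbp1 by 1.10 (SE 0.15, adjusted p = 0.000129), Pnp by 0.85 (SE 0.0987, adjusted p = 4.28e-05; 1.97 on its brighter probe) and Surf6 by 0.75 (SE 0.0932, adjusted p = 6.87e-05). Lyar was at least 1.23-fold higher than an hCD4- pre-pro-B level not well above background (adjusted p = 0.000621). Tmem121 was at least 2.93-fold lower (adjusted p = 7.56e-06) and Slc45a4 fell by 0.55 (SE 0.143, adjusted p = 0.00719), a call lost with only the 4 arrays in the fit (0.132). Without the first GMP array Slc45a4 fell by 0.30 (0.0419), and without the second it fell by 0.80 (0.000289). Without a symbol 32 of 35 rose, by 0.60 to 2.65, with a median of 1.30 over the 35 (1.35 over the 33) beside 0 over all rows. Ribosome biogenesis genes were higher in GMP in 26 of 28 cases.

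Slide 2 is shared by hCD4- pro-B and hCD4+ pre-pro-B cells. Called in either direction were 19 members, a share below the 45.7% of all rows. Lower in hCD4+ pre-pro-B cells were 18 members, against 25.3% of all rows, and higher was 1, A_55_P2185347, against 20.4%. By class, 8 of 13 with a symbol and 10 of 35 without were lower. Myl10 fell by 3.95 (SE 0.135, adjusted p = 1.7e-08), Dok2 by 1.45 (SE 0.170, adjusted p = 7.66e-05), Pnp by 1.20 (SE 0.0987, adjusted p = 6.57e-06; more on its brighter probe, as given above), Tmem121 by 1.20 (SE 0.168, adjusted p = 0.00026) and Slc25a1 by 1.15 (SE 0.163, adjusted p = 0.000284). Hspbp1 fell by 0.85 (SE 0.15, adjusted p = 0.00115) and Surf6 by 0.50 (SE 0.0932, adjusted p = 0.00163). Median differences were -0.85 with a symbol (-1.15 over the 11) and -0.20 without, beside -0.05 over all rows. Of the pro-B list, 24 of 28 genes were lower and 2 higher. A_55_P2185347 was higher by 0.50 (SE 0.133, adjusted p = 0.0118), a call lost without the first hCD4+ pre-pro-B array or the first hCD4- pro-B array, which left 0 members higher. Tmem121 lost its call with only the 4 arrays in the fit (0.0507).

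GMP against hCD4+ pre-pro-B cells compares the reporter-positive groups other than hCD4+ pro-B cells. Called in either direction were 39 members, against 49.9% of all rows. Higher in GMP were 37 members, against 26.7% of all rows, and lower were 2, Tmem121 and Myl10, against 23.3%. Tmem121 was at least 6.28-fold lower in GMP (adjusted p = 4.4e-07). Myl10, not well above background in GMP, was at least 1.19-fold lower (adjusted p = 0.0324), a call lost without the second GMP array (0.218) or the second hCD4+ pre-pro-B array (0.219). Hspbp1 rose by 0.90 (SE 0.15, adjusted p = 0.0007), Pnp by 0.80 (SE 0.0987, adjusted p = 9.58e-05; 1.21 on its brighter probe), Dok2 by 0.75 (SE 0.170, adjusted p = 0.00445, and 0.0944 with only the 4 arrays in the fit) and Surf6 by 0.55 (SE 0.0932, adjusted p = 0.000782). Without a symbol 31 of 35 rose, with a median of 0.80 over the 35 beside 0.05 over all rows. Here too the groups are on slides 1 and 2, and the slide and the group cannot be told apart.

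**Figure D5:**
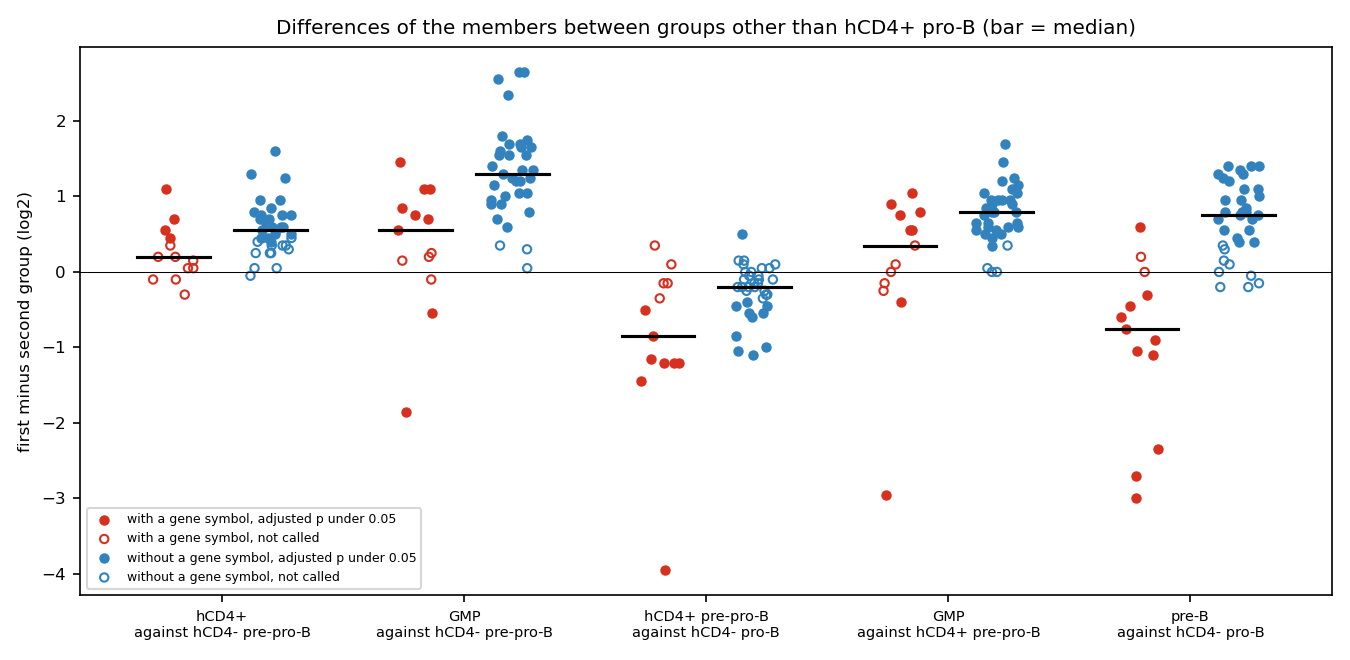
Difference between groups on the log2 scale, first minus second, for each member in 5 comparisons between groups other than hCD4+ pro-B, with filled points for a limma adjusted p under 0.05 and bars for medians. In pre-B against hCD4- pro-B cells the medians are -0.75 for the 13 members with a symbol (red) and 0.75 for the 35 without (blue).

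For 2 Ensembl members the table also has a row under the gene's own name. ENSMUST00000121047, annotated on the array as deoxyhypusine hydroxylase (Dohh), read 8.3 and 8.2 in hCD4+ pro-B cells and 6.4 to 7.3 elsewhere. The row named Dohh read 12.1 on both hCD4+ pro-B arrays and up to 12.7 in GMP. ENSMUST00000072244, annotated as Anp32b, read 8.2 on both hCD4+ pro-B arrays and 6.8 to 7.7 elsewhere, while the row named Anp32b read 14.8 on both against 14.7 for its highest other array. In each case the transcript's probe met the rule and the row of the named gene did not. S-phase genes, a list with 0 members, had both hCD4+ pro-B arrays above all others in 7 of 35 cases, against 2.91% of all rows tested.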

How the data were processed

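Agilent Feature Extraction 10.7.3.1 produced the scanner files, per the file headers, with intensity values in one colour and probe positions on mm9. The deposited table holds log2 values per gene name with the authors' normalisation unstated. They resembled log2 median signal without background subtraction, quantile normalised over arrays and averaged over probes of a name: so rebuilt, 94.6% of values lay within 0.06 of the table and 99.6% within 0.15. Of 48 members, 47 had every value within 0.15, and Pnp did not. Its coordinate column did not match its genes and was not used. Members, lists and the probe-run measure were chosen with earlier results of these data known. Tests used limma 3.58.1 (R 4.3.3) on the deposited table, 12 arrays in 6 groups, two-sided, Benjamini-Hochberg over 18546 rows, threshold 0.05; the script was tested on simulated data. Where 1 group was not well above background, "at least N-fold" sets the bright mean against the lowest well-above-background signal or the dim value, whichever is higher. Named genes were the 20 symbol members with the widest margin (13 exist), called members, the nearest rows to the margin and fixed checks; IDs without a symbol were chosen after seeing values. Symbols and pseudogene status came from RefSeq on GRCm38.p6. A member with a symbol and a marker gene are not reported here by name. The number of arrays, 2 a group, limits precision. Alternatives were scanner values scaled to the 75th percentile or by normexp (offset 50) and quantiles, other thresholds, no filter, 4-array fits, a replicate block and arrays left out.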

Additional observations from a re-analysis of the deposited data

How the results depend on the processing

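With scanner values scaled to the 75th percentile the rule chose 74 names (68.9% without a symbol), 41 of them members, and with normexp and quantiles 35. A margin of 0.3 gave 133 names and one of 1 gave 5. Leaving out 1 array gave 48 to 148 names, with 137 and 148 without the first and the second hCD4+ pro-B array and 73 without the first GMP array. Rebuilding without rounding, chosen after seeing the data, kept 36 members. Members called in hCD4+ against hCD4- pre-pro-B cells numbered 12 to 23 with an array left out and 0 (limma; 33 at an unadjusted p under 0.05) with only the 4 arrays, where calls over all rows went from 3495 to 0; with an array left out they were 1571 to 5574. In pre-B against hCD4- pro-B cells the calls over all rows were 7042, and 4469 to 5207 with an array left out. Outside hCD4+ against hCD4- pre-pro-B cells, the count of members called stayed within 1.5 times of the main one under each alternative run. Scaling to the 75th percentile put the median of all rows at -0.11 (0 in the deposited table) in hCD4+ against hCD4- pre-pro-B cells and at -0.14 (-0.05) in hCD4+ pre-pro-B against hCD4- pro-B cells. With the replicate number as a block, members called were 27, 42, 19, 39 and 37 against 27, 41, 19, 39 and 37 without; the labels do not say that the numbers pair the arrays, and deviations of arrays with the same number correlated at 0.17 to 0.38. Of 400 alternative fits of the 40 symbol-member calls, 368 kept direction and call, 32 lost the call and 0 reversed. Slide as a random block was fitted, with an estimated correlation of 0 in each comparison. As each group lies on 1 slide, that fit cannot separate the slide from the group. Averaging rows of one name was not run because each name has 1 row. Probes with low signal over background limit Lyar, Olfr570 and Rfesd.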
